A study of Capra hircus with 11 samples.

Results

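Goat (Capra hircus) CiMECs, cells induced from ear fibroblasts and then grown as mammary epithelial cells, were compared with the ear fibroblasts from which the induction starts, gene by gene, in droplet single-cell RNA sequencing data. All 5188 barcodes of the CiMECs table were used. From the BFRTV0d table (ear fibroblasts at day 0), 9736 of 10670 barcodes were used, selected on holding at most 2 summed UMIs (unique molecular identifiers, which count captured RNA molecules) of the basal keratins KRT5 and KRT14. Together these were 14924 of the 41854 barcodes of the series. For BFRTV0d the labels give ear fibroblasts at day 0 of induction. For CiMECs they give 1 sample of cells that had spent 8 days in the induction medium called BFRTV and had then been passaged in goat mammary epithelial cell medium, on plates coated with the basement membrane extract Matrigel, with no passage number. The labels name 3 BFRTV0d samples, yet all of them are pooled in 1 table. With 1 table a side there was no replicate, no test and no p-value, and a difference is one between these tables, not between the conditions. No source says whether both tables come from the same animal.

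Fibroblasts are the cells of connective tissue that secrete collagens and other matrix proteins, and they are held in a mesenchymal state by transcription factors of the PRRX, TWIST, ZEB and SNAI families. Epithelial cells instead form sheets joined by cadherin, claudin and desmosome proteins, and their cytoskeleton is built of keratins in place of vimentin. In the mammary gland an inner luminal layer with KRT8, KRT18 and KRT19 makes milk, and an outer basal layer with KRT5 and KRT14 contracts around it.

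The selection left out 934 BFRTV0d barcodes with more than 2 UMIs of KRT5 and KRT14. At its edge, 613 barcodes held 2 UMIs and 111 held 3. KRT5 and KRT14 therefore describe the selection and are not a result. KRT14 stood at 26.4 CPM in the barcodes kept, 4262 CPM in those left out and 279 CPM in CiMECs, and KRT5 at 12.9, 1896 and 995 CPM. CPM is a gene's share of all UMIs, scaled to a sum of 1000000, after the ribosomal protein genes were left out, because the BFRTV0d table lists none of them while 74 took 25.6% of the CiMECs UMIs. Among CiMECs, 1258 of 5188 barcodes (24.2%, exact binomial interval 23.1% to 25.4%) held at most 2 UMIs of both keratins. This limit is in UMIs, and 1008 CiMECs barcodes were shallower than the shallowest BFRTV0d barcode kept. The part of depth in the 24.2% was not tested.

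The depth was 100427827 UMIs in the BFRTV0d barcodes kept, with a median of 9867 per barcode and a lowest of 3444, against 72291250 in CiMECs, with a median of 12535 and a lowest of 346. The BFRTV0d table lists genes found in at least 11 cells and the CiMECs table in at least 6. How the tables were made and the group cannot be told apart. The BFRTV0d barcodes kept and CiMECs shared 61 barcode sequences.

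Compared were the 8612 genes with at least 10 CPM on 1 of the 2 sides. Of these, 569 (6.61%) had at least 4-fold higher CPM in CiMECs, and for 2259 (26.2%) CPM was 4-fold lower or more. The median log2 fold over all genes compared was -1.13, so the middle gene was 2.19-fold lower in CiMECs. The split moved with the scaling. TMM factors, which add 0.88 to each gene's log2 fold, gave 1054 higher and 892 lower genes and a median of -0.12, and a median-of-ratios factor, which adds 0.96, gave 1125 and 831. Counting ribosomal protein UMIs in the totals takes 0.43 from each gene and gave 407 and 3219. Medians of gene lists are therefore given relative to the median of all genes, and no direction is given for genes less than 2-fold apart. An interval after a fold is its exact 95% counting interval, which covers counting error only. Genes missing from a table entered the counts and medians at the smallest number of cells its listed genes have, taken as 1 UMI a cell. A cell can hold more UMIs than 1, so this level is no upper limit, and no fold is given for these genes. Counts of list members past 4-fold are read against the shares of all genes, 6.61% and 26.2%. Where only 1 side reached 10 CPM, that minimum itself fixed which side was higher. Levels and shares given for BFRTV0d without further words are those of the barcodes kept. Of 190 named genes at least 4-fold apart, 21 were under 4-fold against all BFRTV0d barcodes, of which 4 changed sign. With TMM factors 22 of the 190 were under 4-fold.

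**Figure D1:**
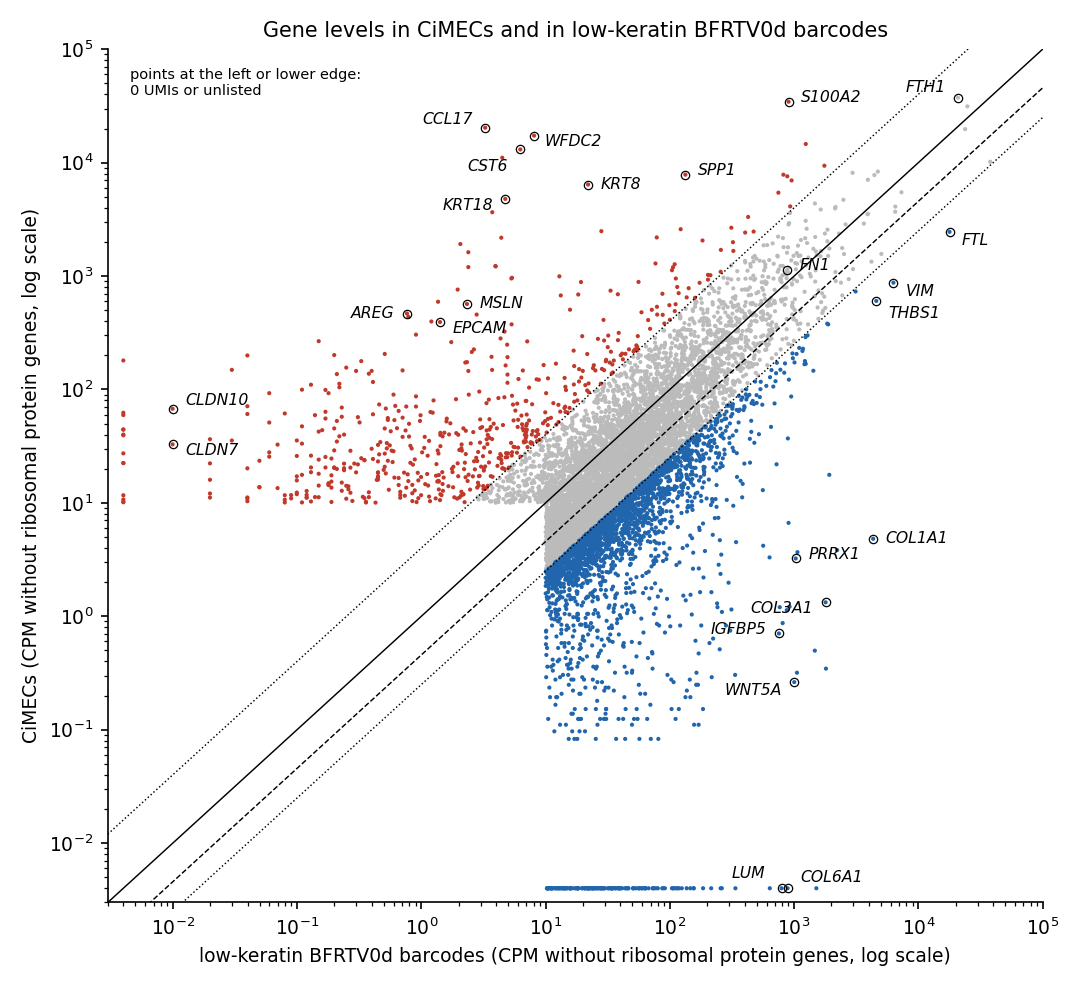
Each point is 1 of the 8612 genes compared, at its CPM in the low-keratin BFRTV0d barcodes (horizontal, log scale) and in CiMECs (vertical, log scale), both without ribosomal protein genes. The solid line marks equal CPM, the dotted lines 4-fold, the dashed line the median of all genes. The 569 red genes were higher in CiMECs by 4-fold or more and the 2259 blue genes lower. CCL17, WFDC2 and CST6 stand at the upper left, at 20336, 17320 and 13073 CPM in CiMECs, and LUM and COL6A1 lie on the lower edge, unlisted in CiMECs.

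UMIs were held by fewer genes in CiMECs. The 50 most abundant genes took 39.0% of the UMIs in CiMECs and 26.1% in the BFRTV0d barcodes kept. In GMECs, the naturally derived mammary epithelial cells of the series, the same number of genes took 35.5%. When each barcode was thinned to 2000 UMIs, the median number of genes detected was 847 in CiMECs (5th to 95th percentile 686 to 1020) and 1137 in BFRTV0d (1064 to 1207). The ranges of these percentiles did not overlap. Thinning left out 771 CiMECs barcodes under 2000 UMIs and none of BFRTV0d.

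**Figure D2:**
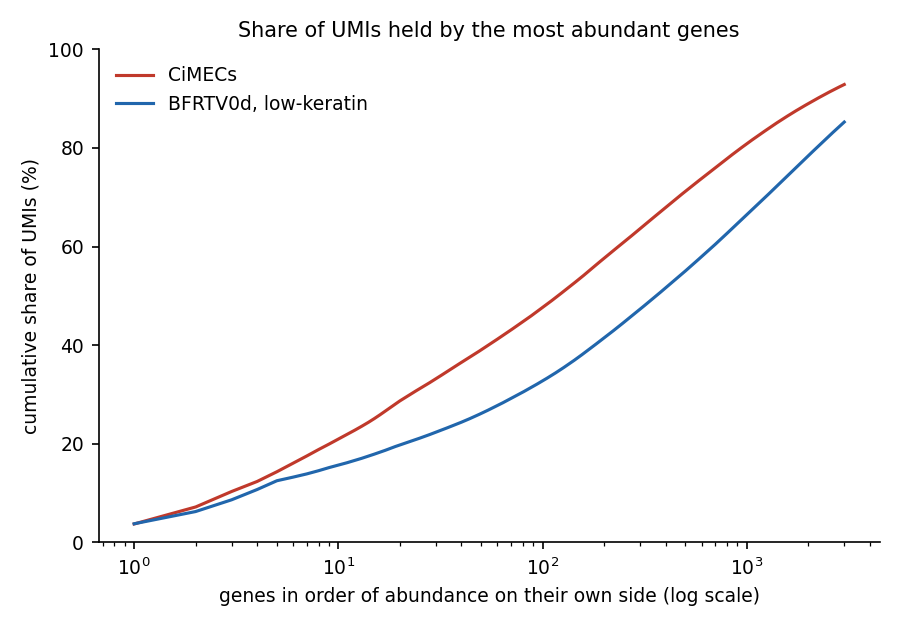
Cumulative share of UMIs (vertical, percent) held by genes in order of abundance on their own side (horizontal, log scale), without ribosomal protein genes. At 50 genes the CiMECs curve has reached 39.0% and the low-keratin BFRTV0d curve 26.1%.

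Markers of the broad cell types differed between CiMECs and the BFRTV0d barcodes kept, which had been selected on few UMIs of basal keratins. After thinning, 98.8% of the BFRTV0d barcodes kept (98.6% to 99.0%) held a UMI of the fibrillar collagen gene COL1A1, against 0.0906% of CiMECs (0.0247% to 0.232%). KRT8 was in 98.8% of CiMECs barcodes and KRT18 in 94.9%, against 3.92% and 0.853% of the BFRTV0d barcodes kept. Without thinning these shares were 99.1% and 97.7% in CiMECs against 18% and 3.89%. The BFRTV0d barcodes left out carry the same label. Their thinned shares were 43.6% for COL1A1, 80.2% for KRT8 and 33.2% for KRT18. KRT8, KRT18, KRT19, EPCAM, WFDC2 and CST6 stood in the BFRTV0d barcodes kept at 0.710%, 0.808%, 0.895%, 0.842%, 1.08% and 1.05% of their CPM in the barcodes left out, and CCL17 and MSLN at 2.30% and 5.14%. The part of free RNA in the UMIs of epithelial genes among fibroblasts was not tested.

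Markers of the mammary lineage were less clear. The pioneer factor FOXA1 of luminal cells stood at 9.93 CPM in CiMECs and 0.428 in BFRTV0d, and GATA3, a luminal fate factor, at 10.3 and 0.129 CPM. The alveolar factor ELF5 stood at 0.871 CPM in CiMECs and 0.229 in BFRTV0d. In GMECs these 3 genes had 14.3, 69.0 and 0.263 CPM. After thinning, GATA3 was in 3.43% of the BFRTV0d barcodes left out, 2.65% of CiMECs and 34.9% of barcodes at day 8 of induction. FOXA1 was in 0.642%, 1.95% and 8.80% of the same, and ELF5 in 0%, 0.181% and 6.94%. The oestrogen receptor gene ESR1 and the prolactin receptor gene PRLR were unlisted in CiMECs. The casein gene CSN3 and the lactoferrin gene LTF were also unlisted there, and LTF stood at 0.319 CPM in GMECs, where CSN3 was unlisted. At day 8 of induction LTF stood at 30.7 CPM and CSN3 at 14.5 CPM. The milk protein genes CSN1S1, CSN2, LALBA and PAEP were not found by symbol and were not analysed here. The basal factor TP63 stood at 0.470 CPM in CiMECs, 0.349 in the BFRTV0d barcodes kept and 42.9 in those left out.

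Most matrix genes of fibroblasts were far lower in CiMECs. The 36 found summed to 23574 CPM in BFRTV0d and 1930 in CiMECs, where FN1 and THBS1, given below, kept high levels. Of 29 collagens and matrix genes compared, 28 were at least 4-fold lower, against 26.2% of all genes, and none was higher by that much, against 6.61%, with a median log2 fold 6.96 below that of all genes. Collagen VI, a beaded-filament collagen around cells, had its chains among the 15 lowest folds: COL6A1 had 886 CPM in BFRTV0d and was unlisted in CiMECs, COL6A2 had 1054 and 0.318 CPM, and COL6A3 had 1468 and 0.498 CPM. The small leucine-rich proteoglycans, which coat collagen fibrils, showed the same picture. LUM (793 CPM in BFRTV0d), DCN (215 CPM), PRELP (146 CPM) and FMOD (137 CPM) were all unlisted in CiMECs.

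Fibrillar collagens left a small remainder. COL1A1 stood at 4329 CPM in BFRTV0d and 4.83 in CiMECs, 897-fold lower (807 to 999). COL1A2 stood at 2218 and 3.83 CPM and COL3A1 at 1793 and 1.33 CPM. This remainder sat in few barcodes. Of 349 COL1A1 UMIs in CiMECs, 345 lay in 4 barcodes, as did 270 of 277 UMIs of COL1A2 and 93 of 96 of COL3A1. These 4 barcodes, chosen after their collagen UMIs were seen, each held 40 to 130 UMIs of COL1A1 and 48 to 176 of VIM, but only 3 to 7 of KRT8 and 3 to 15 of WFDC2. They also held 86 to 2381 UMIs of the chemokine gene CCL17. Without them COL1A1 stood at 0.0554 CPM in CiMECs, 78143-fold lower than in BFRTV0d (30520 to 286801), COL1A2 was 22884-fold lower and COL3A1 43151-fold lower. These larger folds follow from the choice of barcodes, which the interval does not cover.

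The enzymes that fold and modify collagen were lower by less than collagen itself. All 13 found were compared, of which 10 were at least 4-fold lower (7 with TMM factors), with a median 1.83 below all genes. SERPINH1, a collagen chaperone of the endoplasmic reticulum, stood at 891 CPM in BFRTV0d and 37.0 in CiMECs, 24.1-fold lower (23.2 to 25). FKBP10 was 13.6-fold lower, P4HB, the disulfide isomerase subunit of prolyl hydroxylase, 5.50-fold lower, and PLOD1, a lysyl hydroxylase, stood at 37.2 and 18.9 CPM.

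A few matrix and mesenchymal genes kept high levels. FN1, the fibronectin gene, was the exception among matrix genes, at 880 CPM in BFRTV0d and 1128 in CiMECs, and was found in 65.8% and 78.7% of thinned barcodes. THBS1, encoding thrombospondin, stood at 4586 and 604 CPM, 7.6-fold lower (7.52 to 7.67), and 59.6% of CiMECs still held a UMI of it after thinning. VIM, the mesenchymal intermediate filament gene, was 7.21-fold lower (7.15 to 7.27), at 6302 and 874 CPM, yet was in 70.8% of thinned CiMECs barcodes. Within CiMECs, VIM had a median of 685 CPM over barcodes of at least 2000 UMIs, with quartiles of 364 and 1132, so its level did not come from a few cells.

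The surface and cytoskeletal proteins of mesenchymal cells were otherwise low: 15 of 19 were at least 4-fold lower (12 of 18 with TMM factors) and none was that much higher, with a median 5.08 below all genes. The growth factor receptor genes PDGFRA (50.5 CPM in BFRTV0d) and PDGFRB (28.9 CPM) and the cadherin gene CDH11 (256 CPM) were unlisted in CiMECs. THY1 was 98.8-fold lower (76.7 to 130). S100A4, a calcium-binding protein often used to mark fibroblasts, stood at 6514 and 3694 CPM and was in 99.97% and 95.4% of thinned barcodes.

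**Figure D3:**
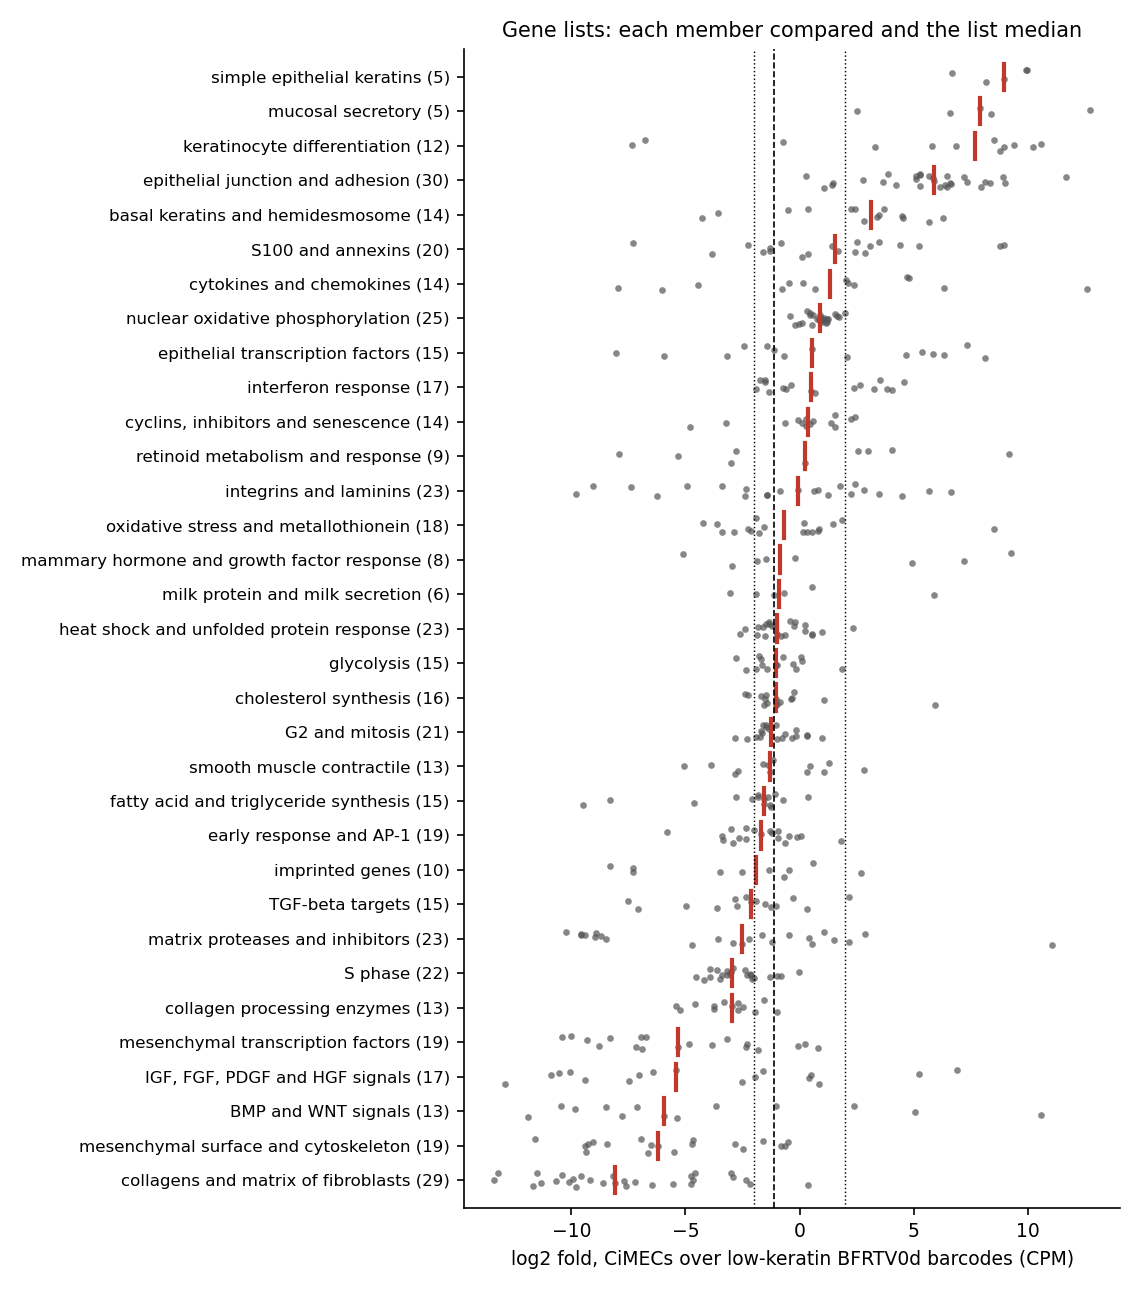
Log2 fold of CiMECs over low-keratin BFRTV0d barcodes (horizontal) for every gene compared in each list of at least 5 such genes, with the number in parentheses. Grey points are genes, red bars list medians, the dashed line the median of all genes (-1.13) and the dotted lines 4-fold. The simple epithelial keratins lie furthest right and the collagens and matrix genes furthest left. Unlisted genes are drawn at the fewest cells their table lists, as 1 UMI a cell.

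Transcription factors of the mesenchymal state went the way of the matrix genes. Of 19 compared, 15 were at least 4-fold lower (12 of 17 with TMM factors) and none that much higher, with a median 4.19 below all genes. PRRX1, a limb and connective tissue homeobox factor, stood at 1030 CPM in BFRTV0d and 3.24 in CiMECs, 318-fold lower (280 to 363). PRRX2 (114 CPM) and the repressor of epithelial genes ZEB2 (87.0 CPM) were unlisted in CiMECs. TWIST2 was 145-fold lower, and SNAI2, a repressor of CDH1, 28.4-fold lower (25.9 to 31.3). Some were less than 2-fold apart: OSR2 stood at 9.81 and 11.7 CPM and OSR1 at 20.7 and 36.8 CPM. HOX genes, which mark position along the body, could not be compared, since none of the 19 found reached 10 CPM and the highest stood at 1.13 CPM.

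Growth factor genes were mostly lower. Of 17 genes of the IGF, FGF, PDGF and HGF pathways, 10 were lower by 4-fold or more and 2 higher (1 of 16 with ribosomal protein UMIs in the totals). FGF7, a growth factor that acts on epithelia, stood at 638 CPM in BFRTV0d and was unlisted in CiMECs, as was the lymphatic growth factor gene VEGFC (156 CPM). IGFBP5 was 1070-fold lower (814 to 1437). IGFBP6 stood at 563 and 755 CPM. Higher in CiMECs were PDGFB (0.169 and 20.5 CPM) and IGFBP3 (0.279 and 10.4 CPM). Both were compared only through their level in CiMECs, and 12 of the 29 list members found were under 10 CPM on both sides.

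Among BMP and WNT genes 9 of 13 were at least 4-fold lower and 3 at least 4-fold higher. WNT5A, a non-canonical WNT ligand, stood at 1003 CPM in BFRTV0d and 0.263 in CiMECs, 3817-fold lower (2444 to 6340). The BMP target ID1 stood at 809 and 0.871 CPM and its relative ID2 at 145 and 11.4 CPM, and the BMP antagonist GREM1 (116 CPM) was unlisted in CiMECs. The WNT antagonist DKK1 went the other way, at 0.0597 CPM in BFRTV0d and 92.8 in CiMECs, 1553-fold higher (713 to 4234). DKK1 was uneven among CiMECs: 11.2% of all barcodes held a UMI of it and 1 barcode held 306 of the 6708 UMIs. DKK3 was 5.27-fold higher and the BMP antagonist CHRD 33.4-fold higher, at 55.1 and 11.3 CPM in CiMECs. With ribosomal protein UMIs in the totals 1 gene of 12 counted as higher.

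Of 15 TGF-beta targets, 8 were at least 4-fold lower (4 of 16 with TMM factors) and 1 was higher (none with ribosomal protein UMIs in the totals). IL11 stood at 902 CPM in BFRTV0d and 6.67 in CiMECs, LTBP2 was 185-fold lower and CTGF 6.61-fold lower, while CYR61 stood at 384 and 489 CPM and LTBP1 was 4.53-fold higher. Contractile genes showed no common direction. TPM2 was 33.3-fold and CNN1 14.8-fold lower, whereas TAGLN, an actin-binding protein of smooth muscle, stood at 1240 CPM in BFRTV0d and 3070 in CiMECs, and MYL9, a myosin light chain, was 6.99-fold higher (6.85 to 7.13).

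Genes of cell junctions were higher in CiMECs. Of 30 junction and adhesion genes compared, 26 were at least 4-fold higher, against 6.61% of all genes, and none was that much lower, with a median log2 fold 7.01 above that of all genes. EPCAM, an epithelial adhesion molecule, stood at 1.41 CPM in BFRTV0d and 393 in CiMECs, 278-fold higher (236 to 330), and CDH1, which encodes E-cadherin, at 0.906 and 86.9 CPM, 95.9-fold higher (78.0 to 119). Tight junction genes included CLDN4 (8.47 and 123 CPM), MARVELD3 (513-fold higher, 338 to 818) and CLDN7, for which 1 UMI in BFRTV0d stood against 32.8 CPM in CiMECs, a ratio of 3298 (591 to 130318). DSP, the desmosome plaque gene, was 34.5-fold higher (29.5 to 40.7), and the epithelial splicing regulator gene ESRP1 51.8-fold. The scaffold gene TJP1 was the least changed member, at 22.5 and 27.6 CPM.

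These counts depend on the selection of barcodes. Against all 10670 BFRTV0d barcodes, 21 of the 30 passed 4-fold upward, with EPCAM 15.4-fold, CDH1 7.09-fold and DSP 2.73-fold.

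Simple epithelial keratins showed the highest list median, 10.1 above that of all genes, and all 5 compared passed 4-fold upward. KRT8 stood at 22 CPM in BFRTV0d and 6415 in CiMECs, 292-fold higher (280 to 304). Its partner KRT18 stood at 4.74 and 4793 CPM, 1011-fold higher (924 to 1109), and KRT19 at 3.72 and 3656 CPM, 982-fold higher (887 to 1089). Over CiMECs barcodes of at least 2000 UMIs the 5th percentile of KRT8 was 1241 CPM and the 95th 12406, so nearly every barcode carried it. In BFRTV0d, 12 of the 9736 barcodes kept held at least 10 UMIs of KRT7, KRT8, KRT18 and KRT19, with 223 of 2208 KRT8 UMIs, 101 of 476 KRT18 UMIs and 325 of 812 WFDC2 UMIs. They were singled out after these values were seen, and without them the folds were 324 for KRT8, 1282 for KRT18, 1264 for KRT19 and 3566 for WFDC2. For the keratins these larger folds follow from how the barcodes were chosen. Against all BFRTV0d barcodes the folds of KRT8, KRT18 and KRT19 were 13.7, 53.7 and 57.5.

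Of the basal keratins and hemidesmosome genes other than KRT5 and KRT14, 8 of 12 were higher by 4-fold or more and 2 lower. The laminin trimer of hemidesmosomes, the anchor of epithelia to the basement membrane, has among its chains those of LAMA3 (22.6-fold higher) and LAMB3 (50.6-fold, 46.3 to 55.4). Its receptor chains ITGB4 and ITGA6 were 7.05-fold and 5.39-fold higher and the hemidesmosome collagen gene COL17A1 13.1-fold higher. The plakins PLEC and DST, linkers of filaments to hemidesmosomes, were 12-fold and 19.6-fold lower.

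The hemidesmosome result rested on the selection. Against all BFRTV0d barcodes no gene of the list was at least 4-fold higher, and COL17A1, ITGA6 and KRT14 had log2 folds of -0.18, -0.38 and -1.20. The barcodes left out held COL17A1 at 367 CPM and ITGA6 at 293 CPM, against 49.9 and 37.3 in CiMECs.

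**Figure D4:**
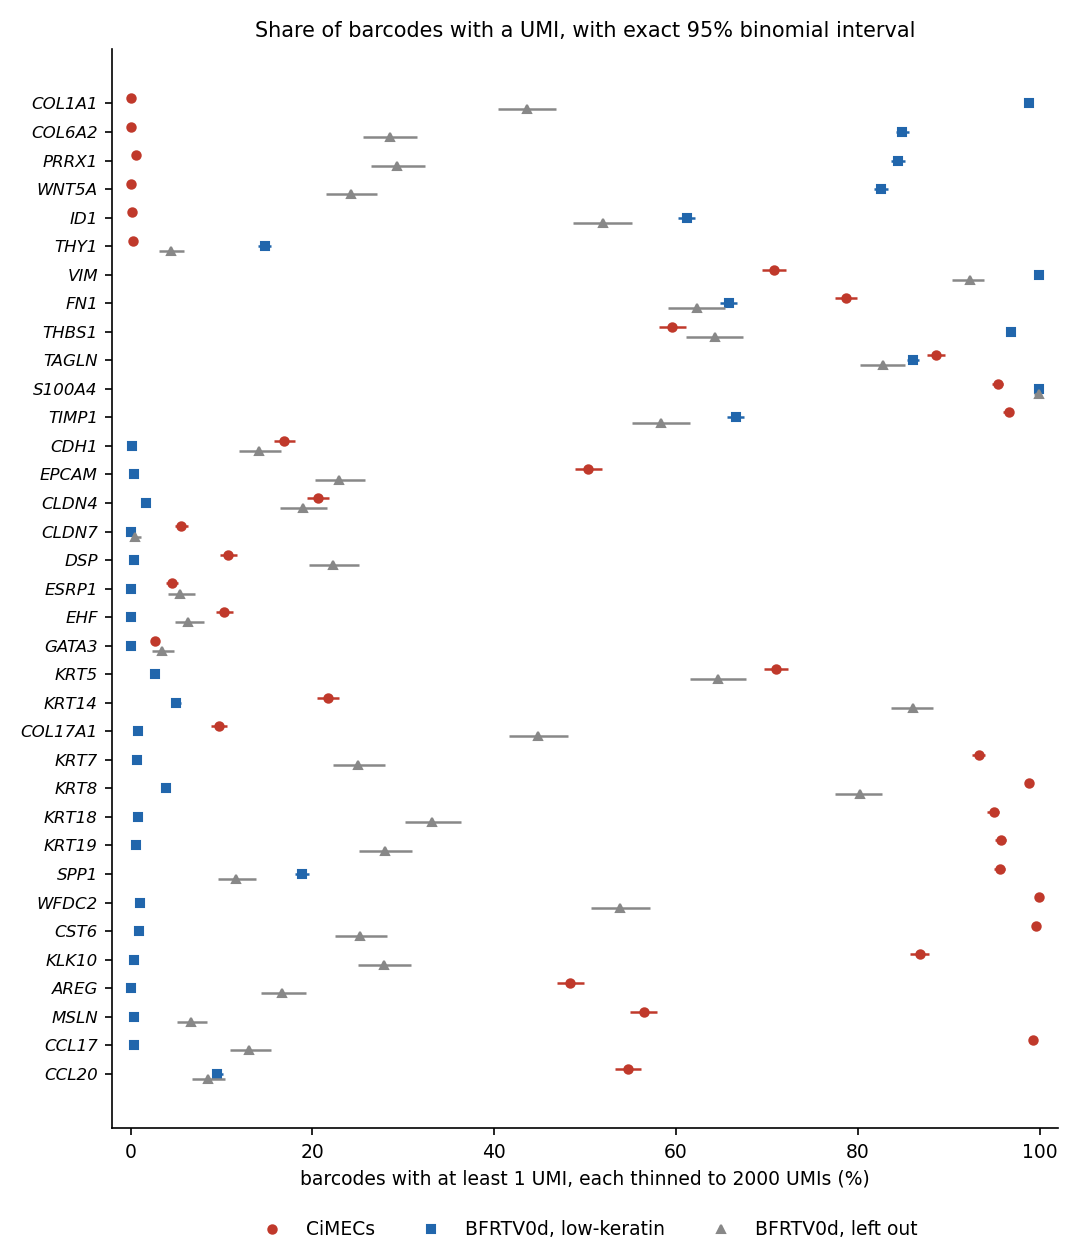
Percentage of barcodes with at least 1 UMI (horizontal), after thinning each barcode to 2000 UMIs, for CiMECs (red circles, 4417 barcodes), BFRTV0d barcodes kept (blue squares, 9736) and BFRTV0d barcodes left out (grey triangles, 934), with exact 95% binomial intervals as bars. KRT8, WFDC2, CST6 and CCL17 lie above 98% in CiMECs, COL1A1 lies at 0.0906% there and at 98.8% in the BFRTV0d barcodes kept, and VIM, FN1, TAGLN and S100A4 lie above 65% on both sides.

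Of 23 integrins and laminins 7 were higher by 4-fold or more, against 6.61% of all genes, and 8 lower, near the 26.2% of all genes. Higher were the epithelial integrin ITGB6 (98.5-fold, 77.3 to 128) and ITGA3 (4.82-fold) beside the hemidesmosome laminin chains. Lower were ITGA5, the fibronectin receptor chain (75.7-fold), LAMC1 (320 and 30.6 CPM), and the nidogens NID1 and NID2, basement membrane linkers that were unlisted in CiMECs. ITGB1, the common integrin chain, stood at 1179 and 229 CPM. With all BFRTV0d barcodes ITGB6 alone of the list counted as higher.

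Of 15 epithelial transcription factors 7 were higher by 4-fold or more, against 6.61% of all genes, and 3 were against all BFRTV0d barcodes. The 4 lower by as much are near the 26.2% of all genes. EHF, an epithelial ETS factor, stood at 0.319 CPM in BFRTV0d and 51.2 in CiMECs, 161-fold higher (114 to 235). OVOL2, a repressor of mesenchymal genes, was 280-fold higher (109 to 1031) on 11.2 CPM in CiMECs, and SOX4 4.27-fold higher. Lower were TBX3, a mammary placode factor (61.8-fold, 48.7 to 79.5), KLF4 (9.07-fold), TRPS1 (5.45-fold) and ID4 (21.8 CPM in BFRTV0d, unlisted in CiMECs). TRPS1 was not lower by 4-fold with TMM factors. SOX9 stood at 44.9 and 66.1 CPM and KLF5 at 18.1 and 11.2 CPM.

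Of 8 hormone and growth factor response genes compared, 3 were higher by 4-fold or more and 2 lower (5 of 10 higher with TMM factors). AREG, amphiregulin, the EGF-receptor ligand of mammary duct growth, stood at 0.767 CPM in BFRTV0d and 467 in CiMECs, 610-fold higher (488 to 773), and was in 48.4% of thinned CiMECs barcodes. The BFRTV0d barcodes left out held AREG at 141 CPM. ALDH1A3, a retinaldehyde dehydrogenase, was 150-fold higher (129 to 175) and CD24 30.5-fold. SOCS2, a cytokine signalling suppressor, was 34.2-fold lower (31.9 to 36.7) and XBP1 7.69-fold lower. ERBB2 stood at 12.4 and 10.8 CPM.

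Of 6 milk secretion genes compared, SPP1 alone was at least 4-fold higher. SPP1, which encodes osteopontin, a secreted phosphoprotein also found in milk, stood at 133 CPM in BFRTV0d and 7842 in CiMECs, 58.8-fold higher (57.8 to 59.8), and in 95.7% of thinned CiMECs barcodes against 18.8% of BFRTV0d. MFGE8, the milk fat globule protein gene, was 8.27-fold lower (7.81 to 8.76), at 147 and 17.8 CPM. B4GALT1, a galactosyltransferase that pairs with alpha-lactalbumin, was 3.71-fold lower. PLIN2, the lipid droplet coat gene, stood at 18 and 11.1 CPM.

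Lipid synthesis genes were near the shares of all genes. Of 15 fatty acid and triglyceride genes, none passed 4-fold upward and 5 downward (3 with TMM factors), against 6.61% and 26.2% of all genes, with a median 0.44 below all genes. The desaturases FADS1 (95.7 and 0.304 CPM) and FADS2 (59.6 CPM, unlisted in CiMECs) differed most. In cholesterol synthesis 1 of 16 was higher, TM7SF2 (60.9-fold, 53.6 to 69.5), and 2 were lower (none with TMM factors), among them SREBF2 (4.79-fold), with a median 0.08 above all genes.

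The most abundant of the 15 genes with the highest folds encode secreted proteins. CCL17, a chemokine that attracts T cells, stood at 3.27 CPM in BFRTV0d and 20336 in CiMECs, 6227-fold higher (5588 to 6960), and took 2.03% of the CiMECs UMIs. WFDC2, a protease inhibitor of ducts and airways, stood at 8.09 and 17320 CPM, 2142-fold higher (2000 to 2298). CST6, a cystatin, stood at 6.26 and 13073 CPM, 2087-fold higher (1930 to 2261). They were in 99.3%, 99.9% and 99.5% of thinned CiMECs barcodes, and each was in 1.05% or fewer of the BFRTV0d barcodes kept. In the BFRTV0d barcodes left out their thinned shares were 13.1%, 53.9% and 25.3%. LOC102169211, named after its values were seen, is the gene next to CCL17 in the RefSeq table of goat assembly ARS1.2 and stood at 4.48 and 11051 CPM, 2466-fold higher (2249 to 2711). Against all BFRTV0d barcodes CCL17 was 867-fold, WFDC2 150-fold and CST6 142-fold higher. How reads shared by these neighbours were counted is not given in the sources used here.

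The other genes among the 15 highest were CLDN10, MAPK15, IVL, KLK12, CELA1, IGSF5, KLK10, TMEM139 and MAL, beside KRT18, KRT19 and DKK1 given above. KLK10, a kallikrein protease, stood at 2.39 and 1622 CPM, 679-fold higher (598 to 774). MAL, a protein of apical membrane transport, was unlisted in BFRTV0d and at 180 CPM in CiMECs. CLDN10 had 1 UMI in BFRTV0d and 67.6 CPM in CiMECs.

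Of 14 cytokines and chemokines, 7 were higher by 4-fold or more and 3 lower (3 and 3 of 13 with ribosomal protein UMIs in the totals). CCL20, which attracts dendritic cells and lymphocytes, stood at 78.5 and 2192 CPM, 27.9-fold higher (27.3 to 28.6), but unevenly: the quartiles over CiMECs barcodes were 64.8 and 2193 CPM. TNF was 80.8-fold higher on 11.3 CPM. CXCL12, the stromal chemokine (20.9 CPM), was unlisted in CiMECs, LIF was 21.5-fold and CSF3 64.8-fold lower. CXCL8 stood at 856 and 631 CPM.

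Many squamous and mucosal genes compared were also higher. Of 12 keratinocyte differentiation genes, 9 were higher by 4-fold or more, against 6.61% of all genes, and 2 lower. All 5 mucosal secretory genes compared were higher. Another 7 of 19 keratinocyte and 12 of 17 mucosal genes found were under 10 CPM on both sides. The 17 mucosal genes summed to 18.3 CPM in BFRTV0d, so most of the 5 were compared only through CiMECs. So were IVL, DMKN, S100A8 and KLK10 of the 9, and KLK10 stood at 256 CPM in the BFRTV0d barcodes left out. No count against all BFRTV0d barcodes is given for these lists. IVL, involucrin of the cornified envelope, stood at 0.0398 and 60.8 CPM, DMKN, dermokine, at 0.0299 and 35.5 CPM, and S100A8 at 2.39 and 1200 CPM. The BFRTV0d barcodes left out held S100A8 at 212 CPM, and against all BFRTV0d barcodes it was 36.5-fold higher in CiMECs. LY6D ran the other way, at 1920 CPM in BFRTV0d and 17.7 in CiMECs, 109-fold lower (103 to 115), and LOR, loricrin (13.4 CPM), was unlisted in CiMECs. MSLN, which encodes the surface protein mesothelin, stood at 2.33 and 568 CPM, 244-fold higher (214 to 278), and FXYD3, an ion pump regulator, was 336-fold higher.

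In the S100 and annexin families, which bind calcium, 9 of 20 were higher by 4-fold or more and 3 lower. S100A2 was the most abundant of them, at 903 CPM in BFRTV0d and 34474 in CiMECs, 38.2-fold higher (37.9 to 38.4), and in every thinned CiMECs barcode. Over all BFRTV0d barcodes S100A2 stood at 3276 CPM, which gives a log2 fold of 3.40. S100A11 was 5.36-fold, ANXA2 8.59-fold and S100A9 435-fold higher, whereas ANXA6 was 156-fold and S100B 14.3-fold lower. The BFRTV0d barcodes left out held S100A9 at 169 CPM.

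Proteases and their inhibitors were lower by 4-fold or more in 13 of 23 and higher in 3. MMP2, a gelatinase of stroma, stood at 873 and 1.13 CPM, 770-fold lower (620 to 968), and ADAMTS1 was 1216-fold lower. TIMP1, an inhibitor of metalloproteases, stood at 747 and 5438 CPM, 7.28-fold higher (7.22 to 7.33). TIMP2 was 5.82-fold lower, though not by 4-fold with TMM factors, and TIMP3 stood at 300 and 394 CPM.

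Retinoid genes were divided. Of 9 compared, 4 were higher by 4-fold or more and 4 lower. The binding protein gene CRABP2 stood at 404 and 2419 CPM, DHRS3 was 16.7-fold higher and TGM2, a retinoid-induced transglutaminase, 585-fold higher (365 to 1005). RBP4, the secreted retinol carrier, was 240-fold lower (193 to 304). The receptor genes RARG and RARA were 39.9-fold and 6.96-fold lower, RARA not by 4-fold with TMM factors.

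Interferon response genes were at least 4-fold higher in 7 of 17 and lower in none. IFI6 stood at 76.7 and 1292 CPM, 16.9-fold higher (16.5 to 17.3), BST2 was 24.0-fold and IFI35 6.33-fold higher. MX1 (30.7 and 20.5 CPM) and ISG15 (27.6 and 44.4 CPM), which encode antiviral effectors, were less than 2-fold apart.

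Cell cycle genes differed by phase. All 22 S phase genes were compared, and 17 were at least 4-fold lower in CiMECs (12 of 20 with TMM factors) and none higher, with a median 1.82 below all genes. UHRF1, which maintains DNA methylation, was 23.2-fold lower (20.4 to 26.5), the helicase gene MCM4 15.4-fold and RRM2 8.22-fold lower, while PCNA stood at 73.3 and 72.2 CPM. Of 21 genes of G2 and mitosis only 2 were at least 4-fold lower (none of 19 with TMM factors), with a median 0.11 below all genes. These were MKI67, 7.13-fold lower (6.46 to 7.88) and in 7.09% and 1.43% of thinned barcodes, and KIF11, 4.95-fold lower. UBE2C stood at 70.2 and 89.3 CPM and PTTG1 at 56.1 and 111 CPM.

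Of 14 cyclins, inhibitors and senescence genes, 2 were at least 4-fold higher (5 of 15 with TMM factors): CDKN1A, the p21 inhibitor, at 137 and 649 CPM, and GADD45A at 55.2 and 296 CPM. LMNB1, a nuclear lamin, was 9.21-fold lower (8.28 to 10.3) and CDKN2C 27.8-fold lower. CCND1, cyclin D1, stood at 827 and 797 CPM.

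Of 25 nuclear genes of oxidative phosphorylation, 1 was at least 4-fold higher (8 with TMM factors) and none lower, with a median 2.05 above all genes and a narrow range of log2 folds from -0.40 to 2.01. The complex I gene NDUFA6 stood at 159 and 644 CPM, 4.04-fold higher (3.97 to 4.11). Glycolysis genes lay near the median of all genes (0.12 above it), with 2 of 15 lower: SLC2A1, the glucose transporter, 6.88-fold and HK1 5.04-fold, neither by 4-fold with TMM factors. Of the ferritin chains FTL alone passed 4-fold, though not with TMM factors. FTL, the light chain, stood at 17827 CPM in BFRTV0d and 2455 in CiMECs, 7.26-fold lower (7.23 to 7.30), and FTH1, the heavy chain, at 20836 and 37440 CPM. GPX2, a glutathione peroxidase of epithelia, was 366-fold higher (269 to 513), and TXNRD1 12.3-fold lower.

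Of 19 early response genes 8 were at least 4-fold lower (4 of 18 with TMM factors) and none higher, with KLF2 at 27.9 and 0.498 CPM and IER3 at 1882 and 375 CPM. DUSP1 stood at 174 and 113 CPM and KLF6 at 192 and 176 CPM. Among 23 chaperone genes HSPB1 was 5.13-fold higher, and ATF4 (6.19-fold) and CANX (5.23-fold) were lower, neither by 4-fold with TMM factors. Of 10 imprinted genes 5 were at least 4-fold lower (2 of 7 with TMM factors) and 1, PHLDA2, was 6.57-fold higher. SGCE and NDN were unlisted in CiMECs, SNRPN stood at 83.9 and 60.6 CPM. The reprogramming factors MYC and KLF4 were 5.11-fold and 9.07-fold lower, MYC not by 4-fold with TMM factors. These 2 were the only members compared, of 16 listed and 7 found. The other 5 found were under 10 CPM on both sides.

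Marker lists of cell types other than fibroblasts and epithelium summed to at most 70.8 CPM each in CiMECs and at most 230 CPM in BFRTV0d. The summed CPM of 12 immune markers was 49.0 in BFRTV0d and 55.6 in CiMECs, of 7 endothelial markers 36.8 and 3.53, of 7 adipocyte markers 20.7 and 0.180, of 6 pericyte markers 230 and 20.3, of 7 chondrocyte markers 109 and 70.8, of 8 melanocyte and Schwann cell markers 83.0 and 19.5, and of 3 skeletal muscle markers 1.58 and 4.74. In CiMECs 5 of the immune markers found were at 0 or unlisted, among them CD3E, TYROBP and CSF1R, as were 4 of the endothelial ones, among them PECAM1 and KDR. Among the immune markers that were higher was CORO1A (1.31 and 17.4 CPM). The sum for pericytes in BFRTV0d came mostly from CSPG4 (138 and 4.21 CPM) and CD248 (78.7 and 0.858 CPM), and that in CiMECs mostly from NOTCH3 (11.5 and 15.3 CPM). The sum for chondrocytes in CiMECs came mostly from SOX9, which epithelial cells also express, while the cartilage collagen gene COL11A1 (62.9 CPM) was unlisted in CiMECs. Their part in the comparison was not tested.

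The other tables of the series place some of these genes in time. The BFRTV0d barcodes left out by the selection, the induced cells at day 4 (BFRTV4d) and day 8 (BFRTV8d) and GMECs are given as CPM without comparison, since they share table sets with the 2 sides. KRT8 stood at 3098 CPM in the barcodes left out, 618 at day 4, 338 at day 8, 6415 in CiMECs and 8565 in GMECs. KRT18 stood at 587, 100, 110, 4793 and 7373 CPM in the same tables. The day 0 barcodes kept stood below these, at 22 CPM for KRT8 and 4.74 for KRT18. KRT19 was already high at day 8, at 416, 1291, 3291, 3656 and 8424 CPM.

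CCL17 stood at 142 CPM in the barcodes left out, 43.4 at day 4, 8.05 at day 8, 20336 in CiMECs and 33678 in GMECs. CST6 stood at 596, 153, 206, 13073 and 6375 CPM in the same order. MSLN stood at 45.3, 2.23, 2.47, 568 and 2.59 CPM, far higher in CiMECs than in the others, and KLK10 at 256, 106, 115, 1622 and 55.2 CPM. SPP1 was most abundant at day 8, at 1488 CPM at day 4, 17305 at day 8, 7842 in CiMECs and 6798 in GMECs. COL1A1 stood at 884, 524, 38.3 and 4.83 CPM in the barcodes left out, at day 4, at day 8 and in CiMECs, and was unlisted in GMECs. ID1 stood at 1215 CPM at day 4, 1617 at day 8, 0.871 in CiMECs and 0.346 in GMECs.

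**Figure D5:**
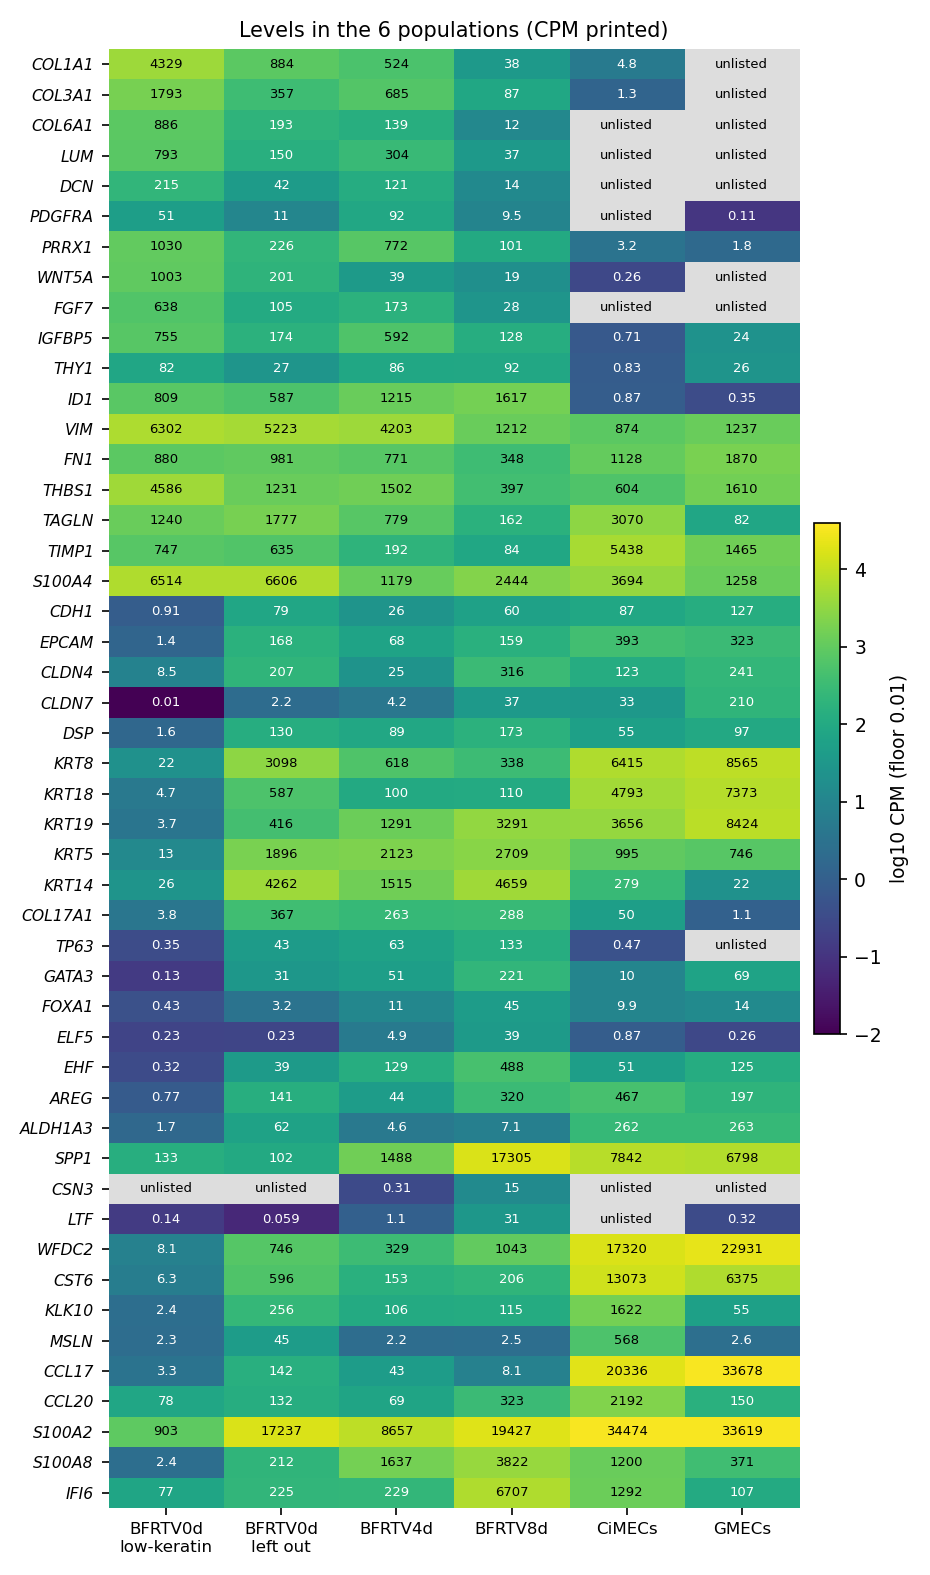
CPM of 48 genes (rows) in 6 populations (columns), printed in each cell and coloured on a log10 scale, with grey for genes a table does not list. COL1A1, COL6A1, LUM and WNT5A are high in the low-keratin BFRTV0d barcodes and at most 4.83 CPM or unlisted in CiMECs and GMECs. CCL17, WFDC2 and CST6 are brightest in CiMECs and GMECs, where their lowest value is 6375 CPM, while MSLN reaches 568 CPM in CiMECs and at most 45.3 elsewhere.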

How the data were processed

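Droplet libraries of trypsinised cells were made with 10x Genomics chemistry that reads the 3′ end of transcripts. The authors deposited 1 table of UMI counts per group, whole numbers per gene and barcode with no normalization. For read checks and counting, FastQC 0.10.1 and Cell Ranger (version not given) stand in the submitters' processing notes. Genome build and annotation: not given in the sources used here. No coordinates or sequences are printed. Barcodes carry no sample names. Each group was treated as 1 library.

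UMIs were summed per gene, 74 ribosomal protein genes were left out, and sums were scaled to CPM. Genes with at least 10 CPM on 1 side were compared, and genes past 4-fold either way were counted. Folds are ratios of CPM with exact 95% conditional binomial intervals. A listed gene at 0 was set at 3 counts, an unlisted one at 11 (BFRTV0d) or 6 (CiMECs). Shares of barcodes were taken after thinning to 2000 UMIs. Scrublet (scanpy 1.11.5) called 3 CiMECs and 4 BFRTV0d barcodes, under 0.5%, and so did not work. Doublets were not removed. Factors came from edgeR 4.0.16 (TMM). The fold calculation was tested on counts simulated from the BFRTV0d profile, with a small set of genes changed evenly up and down. The simulation held no unlisted genes and no shift of most genes, so it cannot decide between scalings.

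The comparison and the 42 gene lists were chosen with earlier results of these data known. Genes named were the 15 highest and 15 lowest folds with at least 50 CPM and a symbol, the cell type markers, and from each list the 3 most abundant members at least 4-fold apart, the 2 largest folds each way, the 2 most abundant under 2-fold, and those at least 4-fold against the list median. Some genes that this rule names are not reported here. Promoter motifs were not analysed here.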

Additional observations from a re-analysis of the deposited data

Results flagged for a closer look

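Values outside the comparison stood above the level of the low-keratin BFRTV0d barcodes. Ribosomal protein genes took 25.6% of the UMIs of CiMECs, while the BFRTV0d table lists none of them. The BFRTV0d barcodes left out by the selection held the most abundant of the 15 genes with the highest folds at 142 CPM (CCL17), 746 CPM (WFDC2), 596 CPM (CST6), 587 CPM (KRT18) and 416 CPM (KRT19). The barcodes kept held these genes at 3.27, 8.09, 6.26, 4.74 and 3.72 CPM.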

How the results depend on the processing

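No paired analysis was possible because each group is 1 pooled table and the result comes from no test. With 1 library a group no difference has a replicate check, the pooled counts cannot separate culture, passage, animal and table filters from the group, and depth limits genes near 10 CPM. The main counts were 569 higher and 2259 lower genes with a median log2 fold of -1.132. Scaling moved them: 1054, 892 and -0.119 with TMM factors, and 1125, 831 and -0.024 with a median-of-ratios factor. Counts and median were 407, 3219 and -1.593 with ribosomal protein UMIs in the totals, 806, 1778 and -0.803 without the 50 most abundant genes in the totals, 586, 1988 and -1.017 with barcodes weighted equally and 573, 2057 and -1.068 with barcodes thinned. A minimum of 50 CPM gave 251, 891 and -0.889, and one of 1 CPM gave 1101 and 3406. At 2-fold, 1051 genes were higher and 4607 lower, and at 8-fold 886 were lower. Against all BFRTV0d barcodes the log2 folds of COL17A1, ITGA6 and KRT14 turned to -0.1823, -0.379 and -1.2, the changed side being the construction of that alternative. Of 190 named genes at least 4-fold apart, 21 were then under 4-fold, against 22 with TMM factors. List medians relative to all genes turned for lists of few or scattered members: retinoid genes (-0.046 at 1 CPM), integrins and laminins (-0.729 at 50 CPM, -0.048 at 1 CPM), chondrocyte markers (1.65 at 1 CPM, 1.659 with genes in both tables) and melanocyte and Schwann cell markers (2.382 with TMM factors, 2.369 with the median of ratios, 2.494 without the 50 genes, 2.609 with equal weights, 0.229 at 1 CPM). The cause was not tested. Leaving out the few collagen-rich or keratin-rich barcodes was chosen after seeing the data and moved the folds given above.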
